A study of Rattus norvegicus with 40 samples.

Results

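The genes described here are 7 rows of a gene count table from 40 RNA-seq libraries of rat microglia. They stand for the cytokine genes Il1b (ENSRNOG00000004649), Il1a (ENSRNOG00000004575), Il6 (ENSRNOG00000010278), Il10 (ENSRNOG00000004647) and Tnf (ENSRNOG00000055156), and for the prostaglandin synthase genes Ptgs2 (ENSRNOG00000002525) and Ptgs1 (ENSRNOG00000007415). They were chosen by their identifiers from a list of inflammatory cytokine and prostaglandin genes, and all 7 were found among the 32883 genes of the table. The count table gives identifiers without symbols, so the symbols are those of that list.

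Microglia are the resident macrophages of the brain and spinal cord. Interleukin-1, interleukin-6 and tumour necrosis factor are the classic pro-inflammatory signals that they release, and interleukin-10 is the cytokine that restrains them. Cyclooxygenases, the products of the Ptgs genes, take the first committed step from arachidonic acid to the prostaglandins, with Ptgs1 usually expressed at a steady level and Ptgs2 induced by inflammatory stimuli and, in neurons, by activity.

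Pregnant Sprague Dawley dams breathed either room air in both phases of each cycle (21% oxygen, intermittent normoxia) or air that alternated between 21% and 10.5% oxygen (intermittent hypoxia). Exposure ran from gestational day 10 to day 21, for 8 hours a day at 15 cycles an hour, and the young were then born and raised in normal housing. At 8 weeks of age, 5 litters of each exposure gave a male and a female, and each animal gave microglia from the medulla, the lowest part of the brainstem, and from cervical cord segments C3 to C6. The 8 groups of sex, exposure and region therefore held 5 libraries each, from 20 animals, and none of the animals was breathing hypoxic air as an adult. Cells were captured with magnetic anti-CD11b antibodies, and CD11b is carried by other myeloid cells as well as by microglia; the label was not checked against marker genes here, because no table used here pairs the files' identifiers with symbols.

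Library totals ran from 6061346 to 24039411 counts, and depth differed between groups. In the female cord, the hypoxia libraries held 13570283 to 20650051 counts and the normoxia libraries 8818241 to 13327037. In the male medulla the order was the opposite, with 10752151 to 13299310 in hypoxia and 17741844 to 24039411 in normoxia. One library stood apart from the rest. It was replicate 3 of the hypoxia female medulla, with the lowest total of all, 6061346. It had counts in 13379 genes, against 15094 to 18339 in the other libraries. The main fits kept this library, and values without it are given for some of the results below.

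The regulatory sequences of the interleukin genes that differed most are shown first. The 250 bases upstream of the annotated start were taken from RefSeq on build GRCr8, in which 6 of the 7 genes had an entry (Il10 did not). The Il6 promoter (chr4:5894576-5894825, minus strand) is printed because it is the member with matches to 3 motifs known from inflammatory gene control, and the Il1b promoter (chr3:137036582-137036831, minus strand) and Il1a promoter (chr3:136990018-136990267, minus strand) because these genes shared the difference between regions described below. Capitals mark motif matches.
Il6: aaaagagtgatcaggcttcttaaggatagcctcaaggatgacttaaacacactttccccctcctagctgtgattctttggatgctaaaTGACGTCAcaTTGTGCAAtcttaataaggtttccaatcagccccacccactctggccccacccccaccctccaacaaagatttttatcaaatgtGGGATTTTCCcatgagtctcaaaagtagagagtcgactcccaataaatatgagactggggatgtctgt
Il1b: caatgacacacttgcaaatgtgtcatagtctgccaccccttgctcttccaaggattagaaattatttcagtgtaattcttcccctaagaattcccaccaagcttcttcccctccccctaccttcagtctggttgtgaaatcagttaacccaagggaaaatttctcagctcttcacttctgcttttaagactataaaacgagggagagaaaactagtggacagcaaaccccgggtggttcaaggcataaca
Il1a: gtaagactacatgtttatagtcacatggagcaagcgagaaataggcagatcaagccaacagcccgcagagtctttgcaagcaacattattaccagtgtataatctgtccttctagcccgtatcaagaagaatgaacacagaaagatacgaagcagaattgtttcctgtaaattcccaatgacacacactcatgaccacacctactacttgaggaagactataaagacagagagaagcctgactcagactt

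Reading 5′ to 3′, the first capitals in Il6 are TGACGTCA, the full cyclic AMP response element (CRE), 162 to 155 bases before the start. The second are TTGTGCAA, a match to the C/EBP motif TTGNGCAA, 152 to 145 bases before the start. The last are GGGATTTTCC, a match to the NF-kappaB consensus, 68 to 59 bases before the start. Both strands were searched and the matches do not overlap one another. The same search of the Il1b, Il1a, Tnf, Ptgs2 and Ptgs1 windows found none of the 3 motifs in these letters. Among 33469 rat promoters of the same length, 6.33% hold the NF-kappaB consensus, 2.29% the C/EBP motif and 1.59% the CRE. Il1a and Il1b lie near each other on chromosome 3, on the same strand, with 1 annotated gene between them. These matches describe the sequence, and binding was not measured.

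The interleukin-1 genes were higher in cord than in medulla microglia, in both sexes and after both exposures. Il1b encodes interleukin-1 beta, which is made as an inactive precursor and released after inflammasome cleavage. Il1a encodes interleukin-1 alpha, an alarmin that acts through the same receptor. Il1b averaged 99.2 ± 26.4 CPM (counts-per-million, the count relative to the library total) in the medulla and 350 ± 94.2 CPM in the cord (SD, n = 20 each), and Il1a averaged 40.3 ± 19.9 and 123 ± 44.0 CPM. In whole-sample RNA of this kind, a larger share of cells that express a gene and more RNA per cell cannot be told apart.

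In normoxia males, Il1b stood at 77.6, 130.5, 77.8, 84.1 and 128 CPM in the medulla and at 271, 167, 384, 348 and 454 CPM in the cord (replicates 1 to 5). The values did not overlap, with cord replicate 2 closest to the medulla. The edgeR quasi-likelihood test gave a cord minus medulla log2 fold change of 1.73 (SE 0.25, adjusted p = 0.000552), or 3.31-fold. In hypoxia males the medulla libraries held 104, 80.6, 122, 83.7 and 118 CPM and the cord libraries 274, 392, 284, 557 and 377 CPM. Here too every cord library was above every medulla library, and replicate 4 was the highest cord value of all. The difference was 1.91 on the log2 scale (SE 0.25, edgeR adjusted p = 2.45e-05).

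Il1b in normoxia females was 90.0, 106, 72.3, 119 and 158 CPM in the medulla and 388, 278, 306, 384 and 327 CPM in the cord. The cord libraries were tightly grouped and lay above all medulla libraries, and the log2 fold change was 1.59 (SE 0.25, edgeR adjusted p = 0.000291). In hypoxia females the medulla values were 87.7, 87.8, 39.1, 108 and 109 CPM and the cord values 545, 264, 319.7, 393 and 295 CPM. The low medulla value belongs to the shallow replicate 3, and the 2 sets did not overlap. Cord exceeded medulla by 2.20 on the log2 scale (SE 0.25, edgeR adjusted p = 3.32e-07), and 2.05 without that library. Over all 40 libraries the lowest cord value (167 CPM) exceeded the highest medulla value (158 CPM). In the order of the 8 group means, the 4 cord groups (325 to 377 CPM) stood above the 4 medulla groups (86.3 to 109 CPM), and within each region neighbouring groups overlapped.

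Il1a followed the same order of regions with more scatter among animals. Normoxia males held 25.0, 18.8, 36.3, 40.6 and 71.7 CPM in the medulla and 54.8, 37.2, 121, 115 and 222 CPM in the cord. Cord replicates 1 and 2 fell within the medulla range, and replicate 5 was the highest in both regions. Cord minus medulla was 1.55 on the log2 scale (SE 0.42, edgeR adjusted p = 0.0243). It missed the threshold of 0.05 without cord replicate 5 (1.11, edgeR adjusted p = 0.136) and without medulla replicate 1, 2 or 3 (1.43, 1.38 and 1.52, with edgeR adjusted p = 0.0894, 0.0544 and 0.0550). In hypoxia males Il1a was 29.8, 15.4, 30.6, 40.5 and 41.0 CPM in the medulla and 105, 75.5, 93.8, 157 and 105 CPM in the cord. These sets did not overlap, and the log2 fold change of 1.78 (SE 0.43, edgeR adjusted p = 0.00848) passed the test whichever library was left out.

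In normoxia females Il1a stood at 22.9, 43.5, 39.5, 55.4 and 58.3 CPM in the medulla and at 113, 146, 157, 143 and 115 CPM in the cord. The lowest cord library was well above the highest medulla library. Its log2 fold change was 1.58 (SE 0.42, edgeR adjusted p = 0.0237), and it missed the threshold without medulla replicate 1 (1.42, edgeR adjusted p = 0.0910), medulla replicate 2 (1.58, edgeR adjusted p = 0.0581) or cord replicate 3 (1.53, edgeR adjusted p = 0.0527). In hypoxia females the medulla libraries held 55.2, 32.3, 4.78, 88.6 and 56.5 CPM and the cord libraries 183, 118, 81.1, 161 and 152 CPM. Medulla replicate 4 exceeded cord replicate 3, so the sets overlapped, and the shallow medulla replicate 3 was far below the rest. Il1a was 1.71 higher in the cord on the log2 scale (SE 0.43, edgeR adjusted p = 0.00394) with that library and 1.43 (edgeR adjusted p = 0.00932) without it. In fits of the groups compared alone the Il1a call was lost in hypoxia females (1.71, edgeR adjusted p = 0.117) and in normoxia males (1.58, edgeR adjusted p = 0.0519).

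**Figure D1:**
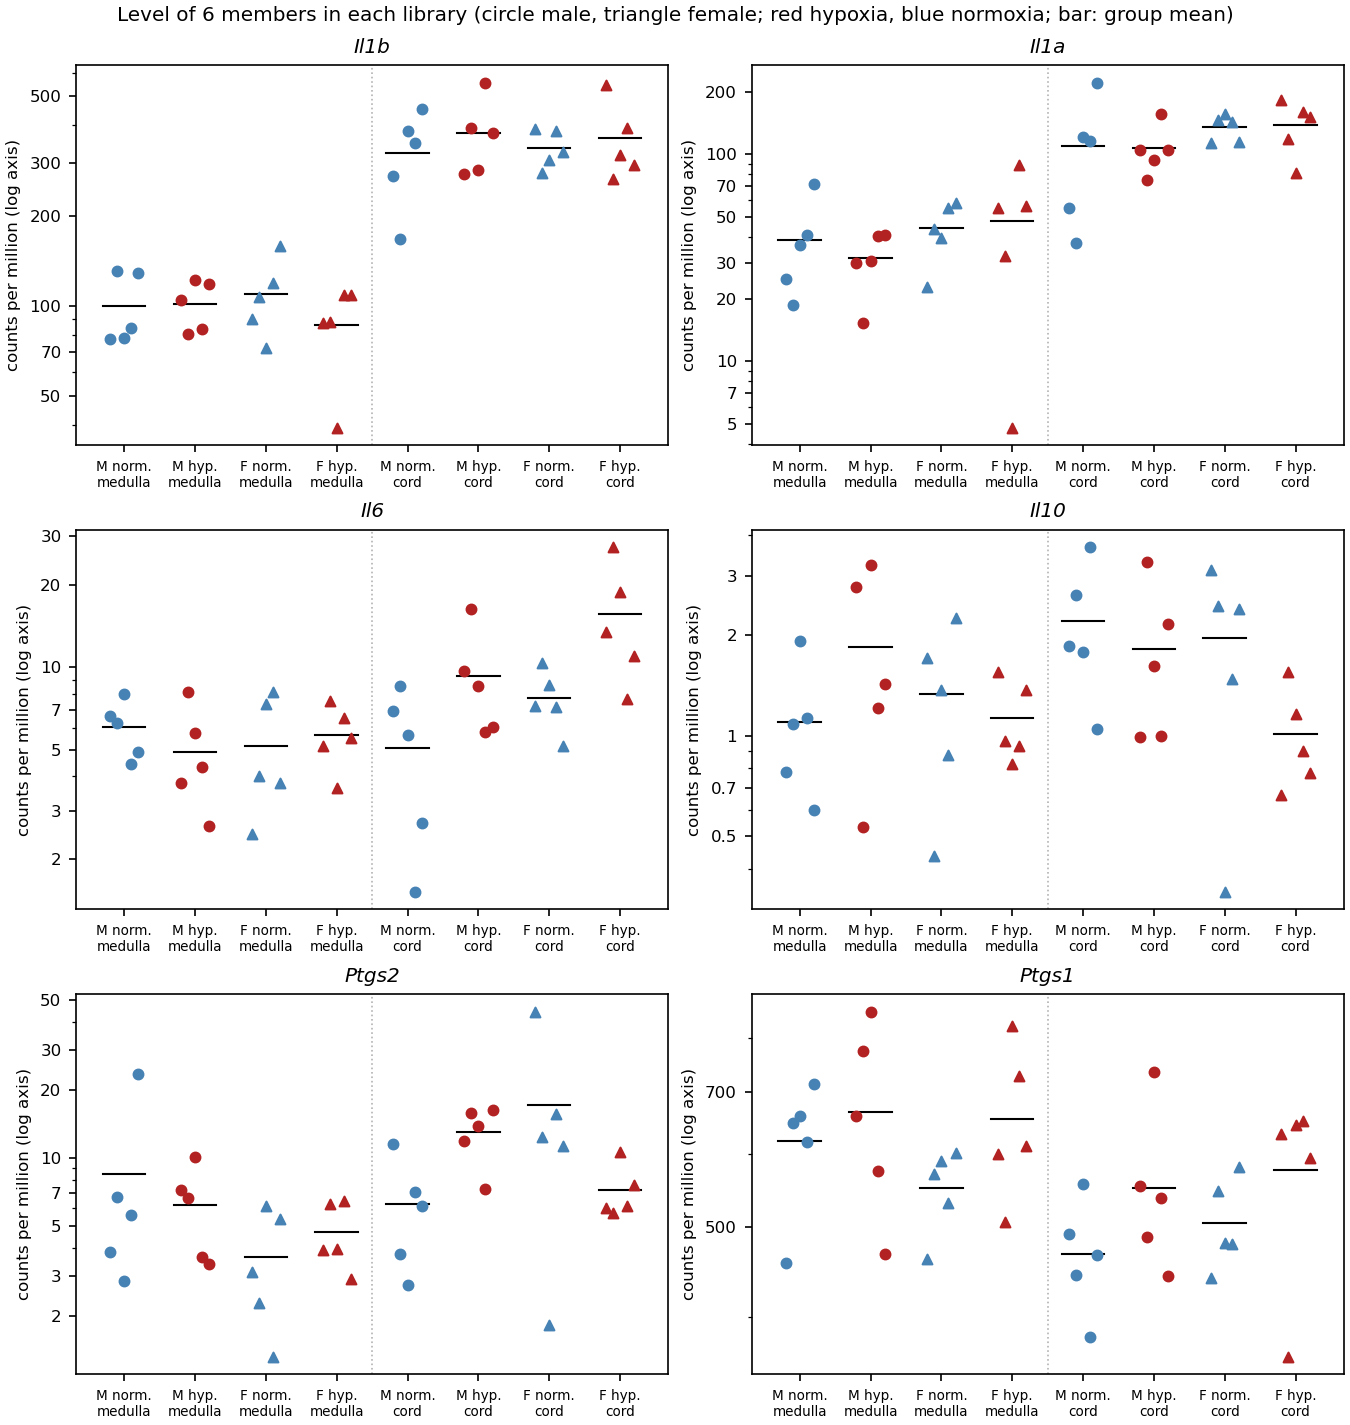
Level of the 6 genes that passed the filter on low counts, in CPM on a logarithmic axis, in each of 40 libraries (circles male, triangles female, blue normoxia, red hypoxia) with a bar at the mean of each group of 5. The Il1b cord libraries, from 167 CPM upward, all lie above the medulla libraries, which reach 158 CPM.

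Because medulla and cord came from the same animals, each animal gives its own ratio. Il1b was higher in the cord in 20 of 20 animals, with a median cord to medulla ratio of 3.52 (range 1.28 to 8.18). Il1a was also higher in the cord in 20 of 20, with a median of 3.21 (range 1.82 to 17.0, the highest in the animal of the shallow library). The other genes were less uniform. Il6 was higher in the cord in 16 of 20 animals (median ratio 1.43), Ptgs2 in 14 (median 1.83) and Il10 in 12 (median 1.46). Ptgs1 was higher in the cord in 2 of 20 animals, with a median ratio of 0.876.

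**Figure D2:**
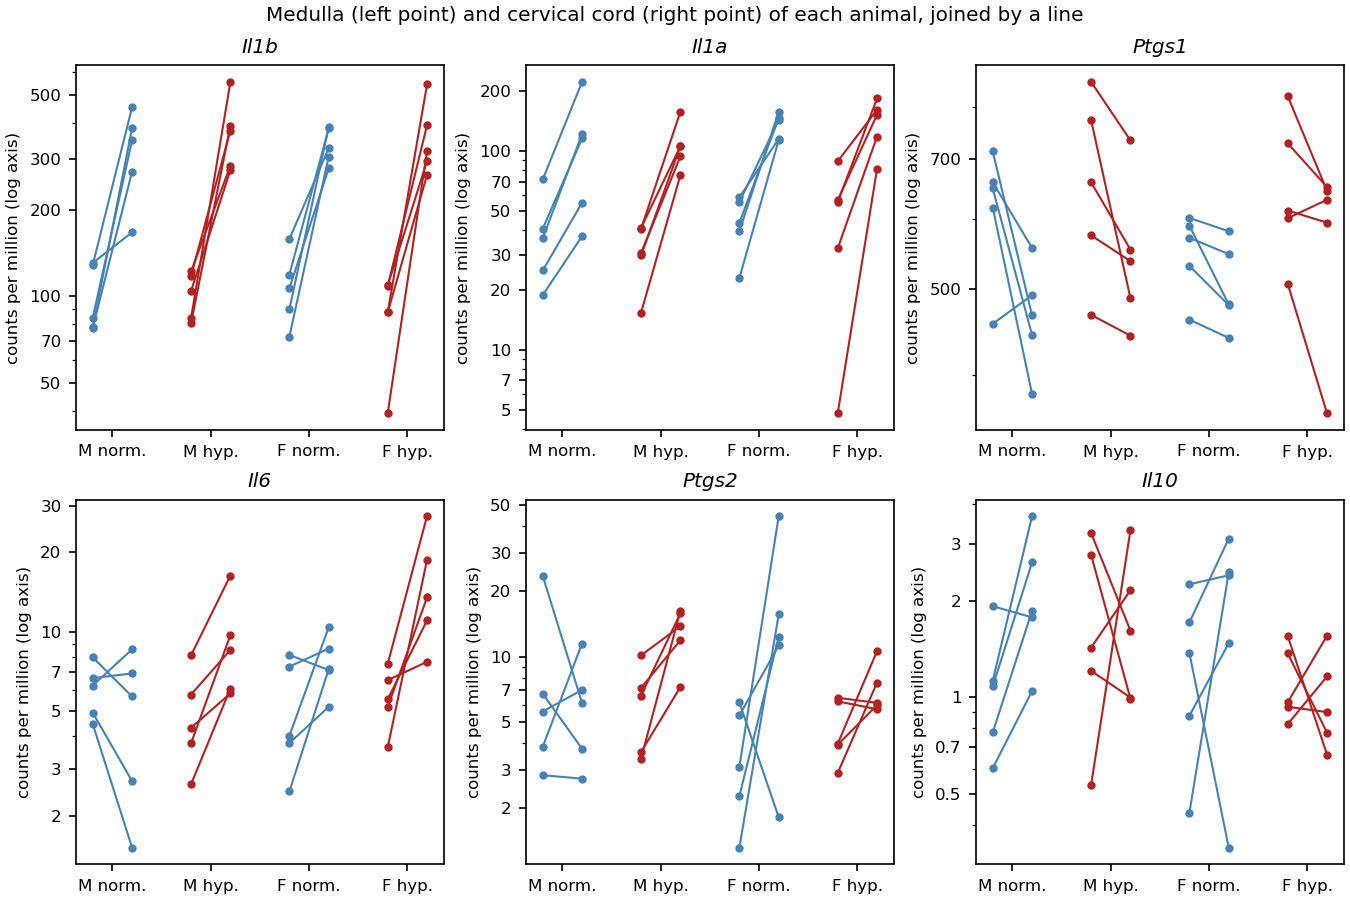
CPM on a logarithmic axis in the medulla (left point) and cord (right point) of each animal, joined by a line, by group (M male, F female; blue normoxia, red hypoxia). Every Il1b and Il1a line rises toward the cord, and 18 of the 20 Ptgs1 lines fall.

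Of the 7 genes, 6 passed the filter on low counts and were tested; Tnf did not pass in any fit. In normoxia males 2 of these 6 were called higher in the cord (edgeR adjusted p under 0.05), against 6.55% of all genes tested called in either direction and 2.37% called higher. In hypoxia males it was also 2, against 7.76% and 2.69%. In females 3 of 6 were called higher in the cord after normoxia, against 5.87% of all genes in either direction and 2.13% higher. After hypoxia it was again 3, against 26.2% and 12.7%. No tested member was called lower in the cord. The median cord minus medulla log2 fold change of the 6 genes was 0.40 and 1.01 in normoxia and hypoxia males and 1.06 and 1.18 in normoxia and hypoxia females. Over all genes tested the medians lay between -0.03 and -0.01.

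The third call in hypoxia females was Il6 and that in normoxia females was Ptgs2. Il6 encodes interleukin-6, which acts through the gp130 receptor chain on glia, neurons and the liver. In hypoxia females it stood at 5.18, 7.54, 3.63, 6.54 and 5.54 CPM in the medulla and at 13.5, 27.5, 18.7, 7.68 and 11.0 CPM in the cord. The sets did not overlap, although cord replicate 4 was close to medulla replicate 2. Its cord minus medulla log2 fold change was 1.61 (SE 0.39, edgeR adjusted p = 0.00302), and 1.53 (edgeR adjusted p = 0.00891) without the shallow medulla library. Limma voom with quality weights gave 1.08 (limma adjusted p = 0.0599), and in a fit of the hypoxia female groups alone 1.59 (edgeR adjusted p = 0.0638). In the other groups the Il6 cord minus medulla log2 fold changes were -0.21 in normoxia males, 0.93 in hypoxia males and 0.54 in normoxia females, with edgeR adjusted p from 0.138 to 0.812.

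Ptgs2 encodes cyclooxygenase 2, the inducible form of the enzyme. In normoxia females it was 3.11, 2.27, 6.15, 1.31 and 5.35 CPM in the medulla and 44.5, 12.4, 1.81, 15.6 and 11.3 CPM in the cord. All cord libraries but replicate 3 were above the medulla range, replicate 1 by the most. The log2 fold change was 2.21 (SE 0.55, edgeR adjusted p = 0.0147). It fell to 1.48 (edgeR adjusted p = 0.0825) without cord replicate 1, and was 1.94 (edgeR adjusted p = 0.0521) with the animal as a block and 1.60 (limma adjusted p = 0.0754) with limma voom. The other Ptgs2 values were -0.43 in normoxia males, 1.10 in hypoxia males and 0.75 in hypoxia females, none called. Leaving out each library in turn moved the normoxia male value between -0.78 and 0.41. In that group medulla replicate 5 held 23.6 CPM, against 2.84 to 6.74 CPM in the other medulla libraries.

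Ptgs1, which encodes the constitutive cyclooxygenase 1, did not pass the test in any group. It averaged 623 ± 114 CPM in the medulla and 525 ± 95.3 CPM in the cord (SD, n = 20 each). Its cord minus medulla log2 fold changes were -0.38, -0.25, -0.16 and -0.10 in normoxia males, hypoxia males, normoxia females and hypoxia females, with the smallest edgeR adjusted p = 0.164. Without the shallow medulla library the last of these was 0.08. For Il10 the 4 log2 fold changes ran from -0.02 to 1.02, with the smallest edgeR adjusted p = 0.207. That value came from normoxia males, where the cord averaged 2.20 ± 0.998 CPM and the medulla 1.10 ± 0.508 CPM (SD, n = 5 each).

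Gestational intermittent hypoxia was compared with normoxia within each sex and region. The only member called was Il6 in the female cord, a comparison in which 32.8% of all genes were called. The normoxia female cord libraries held 7.20, 10.4, 8.62, 7.14 and 5.18 CPM of Il6 and the hypoxia libraries 13.5, 27.5, 18.7, 7.68 and 11.0 CPM. All hypoxia libraries but replicate 4 were above all normoxia libraries. The hypoxia minus normoxia log2 fold change was 1.21 (SE 0.40, edgeR adjusted p = 0.0247), or 2.32-fold higher. Of the 6 genes tested, 1 was called in this comparison, against 32.8% of all genes, 18.2% higher and 14.6% lower. The call was lost without hypoxia replicate 2 (0.86, edgeR adjusted p = 0.107), without hypoxia replicate 3 (1.14, edgeR adjusted p = 0.0538), without normoxia replicate 5 (1.09, edgeR adjusted p = 0.0645) and with limma voom (0.73, limma adjusted p = 0.0945). Over these and the other alternatives the adjusted p ran from 0.00159 to 0.107. The hypoxia libraries of this comparison were also the deeper ones by the totals given above, and the part of depth in the difference was not tested.

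In the male cord Il6 was 6.93, 8.56, 5.67, 1.51 and 2.70 CPM after normoxia and 9.69, 16.3, 8.52, 5.83 and 6.08 CPM after hypoxia. The means were 5.08 ± 2.93 and 9.29 ± 4.26 CPM (SD, n = 5 each), with the sets overlapping. The log2 fold change of 0.83 (SE 0.41) was not called (edgeR adjusted p = 0.764). The test of the difference between the sexes gave 0.38 for female minus male (SE 0.57, edgeR adjusted p = 0.661), so the female and male responses of Il6 in the cord were not shown to differ. In the medulla the Il6 log2 fold changes were -0.28 in males and 0.14 in females. The test of the cord response against the medulla response gave 1.14 in males (SE 0.54, edgeR adjusted p = 1.00) and 1.07 in females (SE 0.54, edgeR adjusted p = 0.154), neither called.

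In the order of group means, Il6 was highest in the hypoxia female cord (15.7 CPM), followed by the hypoxia male cord (9.29 CPM) and the normoxia female cord (7.71 CPM). The remaining 5 groups lay between 4.92 and 6.05 CPM. All neighbours in this order overlapped.

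The Ptgs2 difference between exposures in the cord was called different between the sexes in the main fit, but not under every alternative. In the male cord it was 11.5, 3.75, 2.73, 7.02 and 6.10 CPM after normoxia and 11.9, 15.8, 13.8, 7.24 and 16.3 CPM after hypoxia. Again all hypoxia libraries but replicate 4 lay above the normoxia range. The log2 fold change was 1.05 (SE 0.50, edgeR adjusted p = 0.764), and no gene of those tested was called in this comparison (0% of 13593).

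In the female cord Ptgs2 stood at 44.5, 12.4, 1.81, 15.6 and 11.3 CPM after normoxia and at 5.97, 5.72, 10.6, 6.12 and 7.59 CPM after hypoxia. The hypoxia values lay close together and inside the much wider normoxia range, which held both the highest and the lowest value. The log2 fold change was -1.10 (SE 0.49, edgeR adjusted p = 0.0902). It turned on single normoxia libraries, at -0.37 (edgeR adjusted p = 0.547) without replicate 1 and -1.40 (edgeR adjusted p = 0.0129) without replicate 3. The difference in depth between these groups is the one given for Il6.

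The test of female minus male responses in the cord called Ptgs2, with a log2 difference of -2.15 (SE 0.70, edgeR adjusted p = 0.0309), although neither sex's own difference was called. It was 1 of the 6 genes called, against 23.2% of all genes, 13.2% higher and 10% lower. The value without normoxia female replicate 1 was -1.43 (edgeR adjusted p = 0.0845). The call was also lost without normoxia male replicate 2 (-2.03, edgeR adjusted p = 0.0576), without hypoxia female replicate 2 (-2.10, edgeR adjusted p = 0.0511), in the fit of all 40 libraries (-2.17, edgeR adjusted p = 0.0545) and with limma voom (-1.52, limma adjusted p = 0.151). In the medulla the same test gave 0.83 for Ptgs2 (SE 0.73, edgeR adjusted p = 0.814), with 0 of 6 genes called against 0% of all genes. This value ran from 0.03 to 1.13 when each library was left out in turn.

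The other members did not pass the test in any exposure comparison. The Il1b values were 0.04 and -0.36 on the log2 scale in the male and female medulla, and 0.21 and 0.25 in the male and female cord, each with an SE of 0.23 and edgeR adjusted p of at least 0.425. Il1a ranged from -0.27 to 0.19, with edgeR adjusted p of at least 0.693. Without the shallow library the female medulla values were -0.19 for Il1b and 0.36 for Il1a (edgeR adjusted p = 0.812 and 0.795). The region differences in the same genes, given above, were 1.55 to 2.20.

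The Ptgs1 log2 fold changes were 0.12 and 0.28 in the male and female medulla and 0.22 and 0.33 in the male and female cord, above 0 in all 4 comparisons with none called. Without the shallow library the female medulla value was 0.11. The largest value was in the female cord, where normoxia libraries held 441, 547, 480.4, 479.6 and 581 CPM and hypoxia libraries 629.9, 363, 645, 651 and 594 CPM. The hypoxia libraries other than replicate 2 were above all normoxia libraries, and replicate 2 was below them all. The test gave SE 0.14 and edgeR adjusted p = 0.0791, and 0.44 (edgeR adjusted p = 0.0162) without that replicate. With limma voom, which gives less weight to outlying libraries, the difference was 0.39 (limma adjusted p = 0.0141).

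For Il10 the hypoxia minus normoxia log2 fold change in the female cord was -0.79 (SE 0.49, edgeR adjusted p = 0.225). Its libraries there held 3.12, 2.45, 0.340, 1.47 and 2.40 CPM after normoxia and 0.663, 1.56, 1.16, 0.900 and 0.776 CPM after hypoxia. The sets overlapped: normoxia replicate 3, with 3 counts, was the lowest of all, and normoxia replicate 4 was below hypoxia replicate 2. The other Il10 values for exposure were 0.74 in the male medulla, -0.23 in the female medulla and -0.30 in the male cord. Over the 40 libraries its counts ran from 3 to 40.

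Across the exposure comparisons, 0 of 6 genes were called in the male medulla, the female medulla and the male cord, where edgeR called 0% of all genes. At an unadjusted p under 0.05 edgeR had 0 of the 6 genes in either medulla comparison and 1 in the male cord. Of all genes tested, 122 and 2180 of 14151 passed that mark in the male and female medulla. Without the shallow library it was 327 and 1194 of 14364. In the male cord it was 841 of 13593. DESeq2 and limma voom also called 0 of 6 in these 3 comparisons. Of all genes DESeq2 called 0%, 0.424% and 0.00736% in the same order, and limma voom 0%, 0.00707% and 0%. The median hypoxia minus normoxia log2 fold change of the 6 genes was -0.11 and 0.10 in the male and female medulla and 0.22 in both cords. Over all genes tested the medians lay between -0.04 and 0.00.

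**Figure D3:**
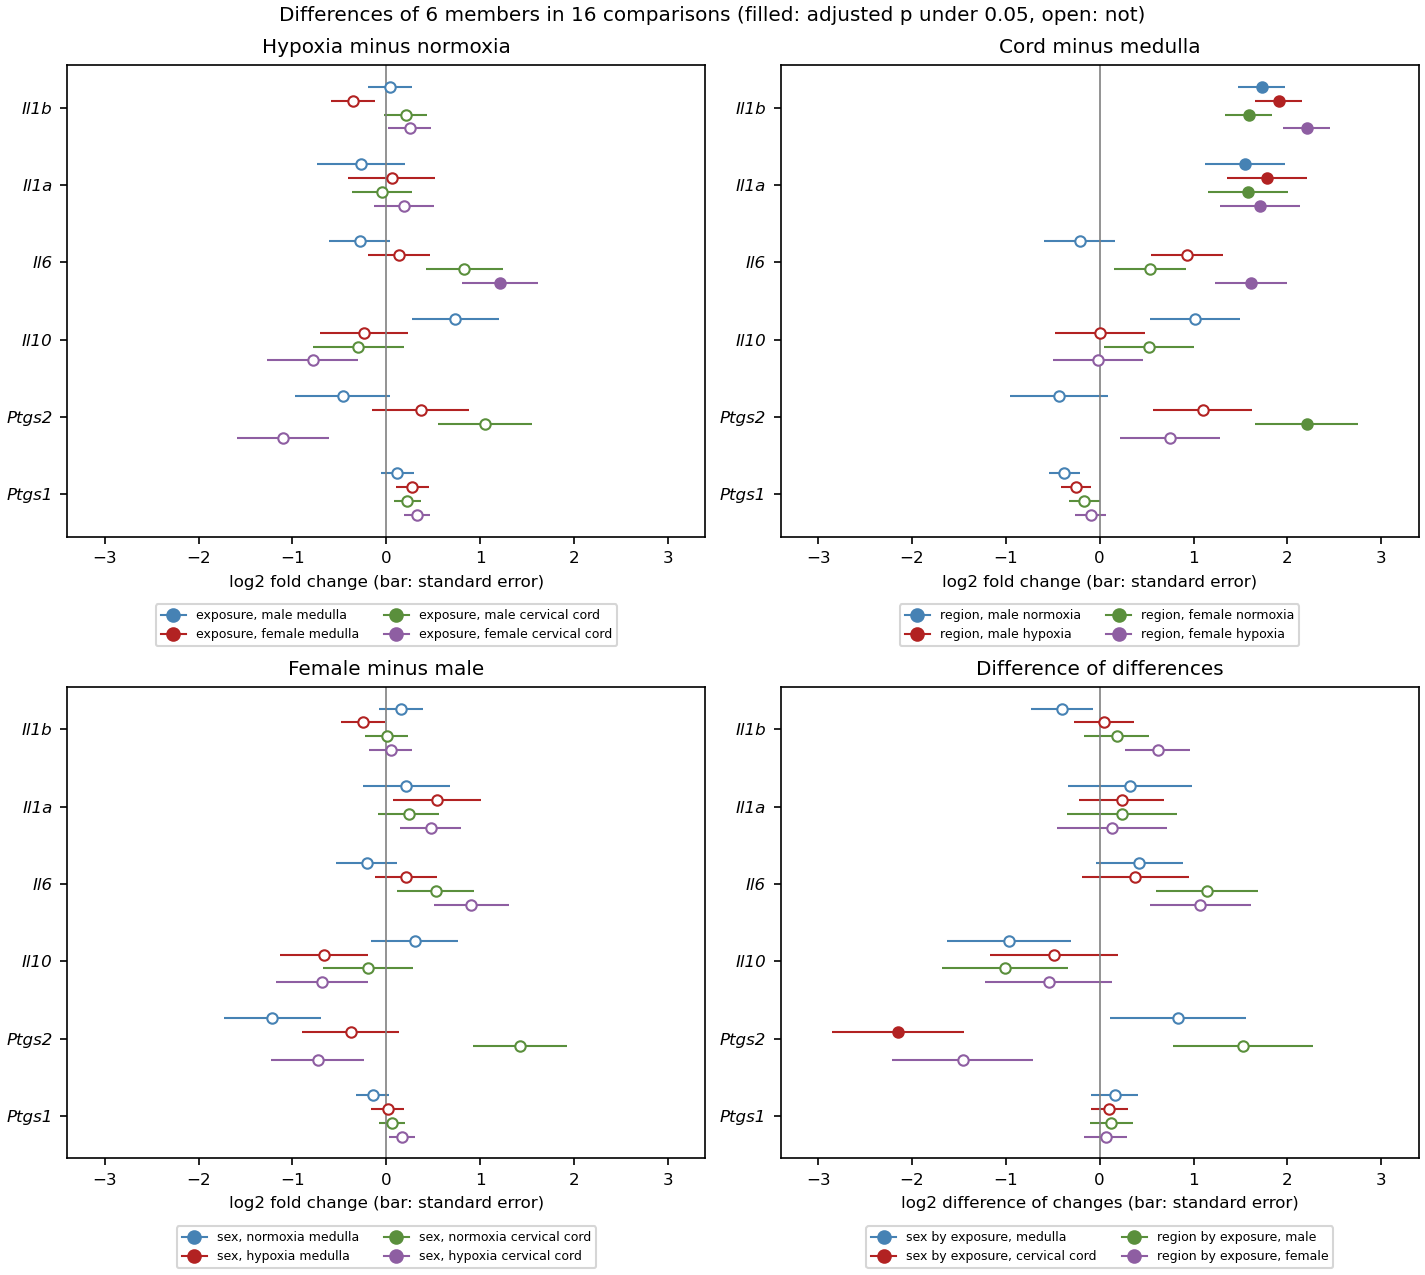
Log2 fold changes with standard errors for 6 genes in the 16 comparisons of exposure, region, sex and their differences; filled points passed edgeR at an adjusted p under 0.05. Il1b and Il1a are filled in all 4 region comparisons, Il6 in the female cord exposure comparison and in the hypoxia female region comparison, and Ptgs2 in the normoxia female region comparison and in the sex by exposure test of the cord.

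Females and males of the same exposure and region were compared next, and 0 of 6 genes were called in each of the 4 comparisons. Over all genes edgeR called 0.0707% and 0.0777% in the normoxia and hypoxia medulla, and 6.56% and 19.6% in the normoxia and hypoxia cord. At an unadjusted p under 0.05 edgeR had 1 member each in the normoxia medulla, normoxia cord and hypoxia cord, and none in the hypoxia medulla. Of all genes tested, 587 and 2027 of 14151 passed that mark in the normoxia and hypoxia medulla. Without the shallow library it was 1238 and 1064 of 14364. In the normoxia and hypoxia cord it was 3196 and 4673 of 13593. DESeq2 and limma voom called 0 of 6 in each. Of all genes DESeq2 called 0.113%, 0.290%, 11.6% and 23.4% in the same order, and limma voom 0.184%, 0.0777%, 9.17% and 19.7%. The female minus male log2 fold changes with the smallest edgeR adjusted p were 1.42 for Ptgs2 in the normoxia cord (SE 0.50, 0.0852) and 0.90 for Il6 in the hypoxia cord (SE 0.40, 0.111). The Ptgs2 value rested on the same normoxia female libraries as its exposure difference and was 0.67 without replicate 1 (edgeR adjusted p = 0.376) and 1.69 without replicate 3 (edgeR adjusted p = 0.0378). The Il6 value was 0.85 (edgeR adjusted p = 0.0125) with the replicate number as a block, and 1.20 (edgeR adjusted p = 0.0431) without hypoxia male replicate 2.

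Whether the response to exposure differed between regions was tested within each sex, and 0 of 6 genes were called. The share of all genes called was 0% in males and 20.8% in females, where the smallest adjusted p of a member was that of Il6. At an unadjusted p under 0.05 there were 2 members in males, Il6 and Ptgs2, and 0 in females. Of all genes tested, 279 of 14832 passed that mark in males and 5091 in females. DESeq2 and limma voom called 0 of 6 in both sexes. Of all genes DESeq2 called 0% in males and 24.6% in females, and limma voom 0% and 17.4%.

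Tnf encodes tumour necrosis factor, the early cytokine that many stimuli release from macrophages within a short time. Its row held 0 to 5 counts in each library and 48 counts in all 40, with 21 libraries at 0. The medulla libraries summed to 17 counts, in 7 of 20 libraries, and the cord libraries to 31 counts, in 12 of 20. The highest library, hypoxia male cord replicate 2, reached 0.491 CPM. Of the 12 comparisons of group pairs, 1 had a two-sided exact permutation p under 0.05 on log2(CPM + 0.5). This was the cord against the medulla in normoxia males (9 against 1 counts, exact permutation p = 0.0476, 0.571 after Benjamini-Hochberg adjustment over the 12). No fold is given for counts this low, and whether reads of other genes or copies were assigned to or taken from this row is not known here.

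Whether an animal's level carried across its regions was examined for each member, without a test between members. Deviations of log2(CPM + 0.5) from the group mean were compared over the 20 animals, as 36 relations with 100000 permutations each. The permutations moved deviations freely across groups and did not keep each group centred, so these p-values are approximate and may be too small. For Il1a, medulla and cord of the same animal deviated together (Pearson r = 0.70, permutation p = 0.00094, adjusted 0.0113; Spearman rho = 0.74, permutation p = 0.00035, adjusted 0.0126). Without the 2 animals farthest from the median in the medulla r was 0.78, and without the shallow library 0.73 (n = 19). For Il1b the same relation was not detected (r = -0.13, permutation p = 0.597, adjusted 0.856; rho = -0.19, permutation p = 0.414, adjusted 0.753). Ptgs1 had r = 0.59 (permutation p = 0.0066, adjusted 0.0395) and rho = 0.54 (permutation p = 0.0151, adjusted 0.0680), with r = 0.66 without the 2 farthest animals. For Il6 r was 0.40, for Il10 -0.19 and for Ptgs2 -0.19, with adjusted permutation p of at least 0.281.

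Within the cord, Il1b and Il1a deviated together (r = 0.73, permutation p = 0.00031, adjusted 0.0112; rho = 0.64, permutation p = 0.0031, adjusted 0.0376), with r = 0.59 without the 2 farthest libraries. Il1a and Il6 deviated in opposite directions there (r = -0.62, permutation p = 0.0027, adjusted 0.0240; rho = -0.65, permutation p = 0.0025, adjusted 0.0376), with r = -0.54 without the 2 farthest. Cord libraries above their group's mean in Il1a thus tended to lie below it in Il6. Cord Il6 was highest in replicate 2 of every group, and the part of the replicate number in this relation was not tested. In the medulla Il1a and Il6 had r = 0.13 (adjusted permutation p = 0.856) and rho = -0.12 (adjusted 0.928). Il1b and Il6 had r = -0.53 in the cord, with an adjusted permutation p of 0.0762. In the medulla Il1b and Il1a had r = 0.71 (permutation p = 0.0008, adjusted 0.0113; rho = 0.58, adjusted 0.0614), which fell to 0.51 without the 2 farthest libraries and to 0.49 without the shallow one. Il10 and Ptgs2 had r = 0.64 in the cord (adjusted permutation p = 0.0240) but rho = 0.42 (adjusted 0.242). Without the 2 farthest libraries r was 0.40, so this relation was weaker without them and passed the threshold by Pearson r only.

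**Figure D4:**
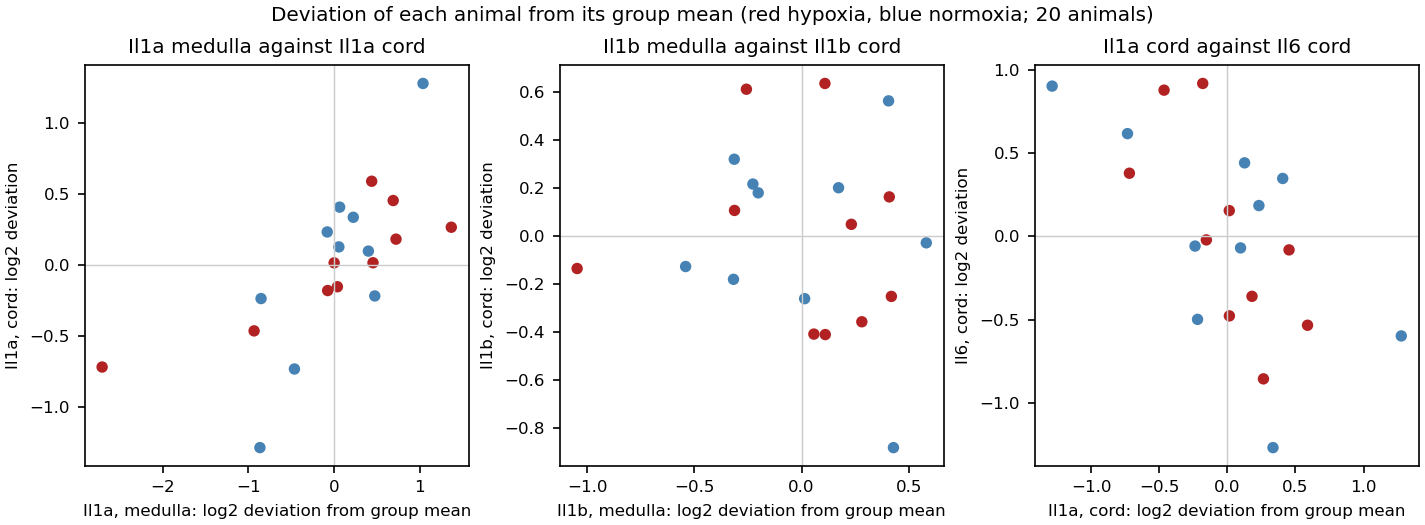
Deviation of each of 20 animals from its group mean in log2(CPM + 0.5), blue normoxia and red hypoxia, for Il1a in medulla against cord (r = 0.70), Il1b in medulla against cord (r = -0.13) and Il1a against Il6 in the cord (r = -0.62). The leftmost point of the first and second plots is the shallow library.

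Over all 40 libraries and 11945 genes, the genes whose deviations followed Il1b most closely were ENSRNOG00000006789 and ENSRNOG00000007390 (r = 0.74 each, and 0.70 and 0.71 without the shallow library), given by identifier because no symbol is paired with it here. Il1a ranked 7 in that list, with r = 0.70, and 0.61 without the shallow library. These values describe likeness across libraries that share their groups and processing.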

How the data were processed

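Gene counts of 40 libraries were analysed, deposited by the authors as whole-number raw counts in 1 table of 32883 gene rows, of which 9630 were 0 in every library and 0 named no gene. The submitters' processing notes name TopHat2 2.1, HTSeq, edgeR and build rn6, without role or order. Strand handling is not given in the sources used here. Groups came from the sample titles. The deposited counts were tested with edgeR 4.0.16 (R 4.3.3): filterByExpr with a minimum count of 10, TMM factors, quasi-likelihood tests and Benjamini-Hochberg adjustment over all genes tested, called at an adjusted p under 0.05. Exposure and sex were fitted on the 20 libraries of a region, and region differences on all 40. CPM was the counts-per-million value of each library total, and log2 levels used a pseudocount of 0.5. Genes below the filter were tested by exact permutation of 5 against 5, which cannot give a p under 0.00794. Relations between members used 100000 permutations.

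The 7 genes were named by a rule that lists them in every comparison, and both they and the pathway and marker lists were chosen with earlier results of these data known. The pathway and marker lists were not analysed here, since 0 of 47357 rows of the RefSeq gene table carry an Ensembl identifier. Genes are not compared in level, because their lengths are not used here. No library was identical to another, and the smallest chi-square per degree of freedom between replicates was 10.9. Replicates of a group were separate animals, so p-values for exposure and sex measure the spread between animals. The main region fits had no term for the animal. Their p-values treat the medulla and cord libraries of an animal as independent and mix the spread between and within animals. Littermates of both sexes were used, but the labels do not say that a replicate number marks a litter. Medulla and cord libraries were paired by animal, from the series design and the codes in the sample titles. Their deviations correlated at 0.07 to 0.54 in 20 pairs, with 17 over 0.1. The labels name no sequencing batch. Alternatives were DESeq2 1.42.0, limma 3.58.1 voom with quality weights, RLE size factors, no filter, other sets of libraries in the fit, the replicate or animal as a block, and leaving out each library. The scripts were tested on simulated data.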

Additional observations from a re-analysis of the deposited data

Results flagged for a closer look

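Among 48 groups of 5 libraries, 6 genes in 8 groups, 2 held a library far from the other 4; chance alone marks about 1 group in 20, or 2.4 of 48. Ptgs2 in normoxia male medulla replicate 5 was 23.6 CPM, against 2.84 to 6.74 CPM in the other 4 libraries, and the same library held the highest Il1a of its group. Ptgs1 in hypoxia female cord replicate 2 was 363 CPM, against 594 to 651 CPM in the other 4, and that library had the highest Il6 (27.5 CPM). By a test of the difference itself, the response of Ptgs2 to exposure in the cord was called different between the sexes. The difference was -2.15 on the log2 scale for female minus male (edgeR adjusted p = 0.0309), in a test that called 23.2% of all genes. The alternatives that lose the call are given in the account of Ptgs2.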

How the results depend on the processing

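Over 1890 refitted values of 96 member differences, 0 called differences changed direction, 23 lost their call and 7 gained one; 73 changes of sign were all among differences not called in either fit. Il1b was called in all 4 region comparisons under every alternative run. The number of members called in the sex by exposure test of the cord was 0 with limma voom and 0 with all 40 libraries. It was 1 in the sex comparison of the hypoxia cord with the replicate number as a block, and 1 in the region comparisons of normoxia males and of hypoxia females when the groups compared were fitted alone; there Il1a was lost in both and Il6 in hypoxia females, at the values given above. Leaving out each library in turn gave 0 to 2 members called for exposure in the female cord, 0 to 1 for sex by exposure in the cord, 0 to 1 for sex in the normoxia and in the hypoxia cord, and 1 to 2 for region in normoxia males. Ptgs1 passed in the region comparison of normoxia males with limma voom (-0.37, limma adjusted p = 0.0333).

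The labels do not say that a replicate number shared across groups marks a litter, so the numbers were not taken to pair the libraries. If they do mark litters, the main tests of sex and of sex by exposure leave that pairing out. The exposures used separate litters, so a number shared between them cannot mark a litter. The pairs and the number block below also span the exposures, and what such numbers share was not tested. Each library was compared with the 5 numbers of the other group, so some best matches with its own number arise by chance. Deviations correlated at -0.41 to 0.70 in 30 medulla pairs, 12 over 0.1 and 6 best with their own number, and at -0.21 to 0.45 in 30 cord pairs, 14 over 0.1 and 14 best with their own number, a hint of shared variation in the cord. Cord Il6 was highest in replicate 2 in all 4 groups, and with the number as a block its exposure difference in females was 1.07 (SE 0.23, edgeR adjusted p = 0.00159). This adjusted p is not that of a litter pairing, because the block joined animals of different exposures. Blocking on the number changed no call but that of Il6 in the hypoxia cord, and blocking on the animal changed no call but that of Ptgs2 in normoxia females, given above.

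The number of all genes called moved by over 1.5 times in several comparisons. For region it was 3886 in hypoxia females and 132 when those groups were fitted alone, 870 and up to 2659 in normoxia females, 972 and up to 2008 in normoxia males, and 1151, 703 and up to 1849 in hypoxia males. Without the shallow library in the shared fit it was 1812 in normoxia females, 1937 in normoxia males and 3199 in hypoxia females. With all 40 libraries in 1 fit it was 513 in place of 0 for exposure in the female medulla, 333 in place of 11 for sex in the hypoxia medulla, 1562 in place of 3155 for sex by exposure in the cord, 122 in place of 892 for sex in the normoxia cord and 992 in place of 2662 for sex in the hypoxia cord. DESeq2 called 60, 41 and 1577 genes for exposure in the female medulla, sex in the hypoxia medulla and sex in the normoxia cord, limma voom called 26 in place of 10 for sex in the normoxia medulla, and the fit of the groups compared gave 1083 in place of 3078 for region by exposure in females. The cause was not tested. Counts were lowest for Tnf (0 to 5) and Il10 (3 to 40), and the part of depth in the precision of Il10 was not tested.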
